A study of Mus musculus with 12 samples.

Results

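The genes described here encode the voltage-gated sodium and calcium channels. Members are all genes whose symbol starts with Scn and a digit, or with Cacna, Cacnb or Cacng and a digit. On the Illumina mouse BeadChip used here 45 probes for 28 such genes were found, of 25697 probes and 16593 named genes in all. By role, 5 of the 28 encode a sodium channel pore, 3 an auxiliary sodium channel subunit, 7 a calcium channel pore and 13 an auxiliary calcium channel subunit.

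RNA came from dorsal root ganglia (lumbar levels L3 to L6) of mice 15 days old. Somatosensory neurons have their cell bodies in these ganglia. The 12 arrays carried 6 pools of c-Maf conditional mutant ganglia (Isl1-Cre//c-Maf), in which Cre driven from the Isl1 gene targets the transcription factor gene Maf, and 6 pools of control ganglia, whose genotype label is wildtype. All mice were of a mixed C57/BL6 and 129Ola strain background. The labels do not say how many mice made a pool, whether the controls carried Cre or an altered Maf allele, or which sexes were used. The p-values set the genotype difference against the spread between pools, not between mice. Isl1 is active in sensory neurons and not in the glia of the ganglion, and each array reads the whole ganglion. The array identifiers put pools 1 to 3 of both genotypes on chip 1 and pools 4 to 6 of both genotypes on chip 2.

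Voltage-gated sodium channels open on depolarization and carry the upstroke of the action potential. Each has a single large pore-forming subunit and smaller beta subunits that set its kinetics and its place in the membrane. Sensory neurons are known for a pair of tetrodotoxin-resistant sodium channels, encoded by Scn10a and Scn11a, that serve in neurons sensing pain. Voltage-gated calcium channels turn the action potential into calcium entry, which triggers transmitter release at the central terminal. In most of them, though not as a rule in the T-type channels, the pore is assembled with a beta subunit inside the cell and an alpha-2-delta subunit outside it. Some alpha-2-delta subunits are the target of gabapentin. Most proteins named gamma subunits act as partners of AMPA-type glutamate receptors.

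Levels are log2 values after background correction and quantile normalization. A level of one probe cannot be set against that of another, because probes differ in how well they bind. A difference is always mutant minus control on this log2 scale. Probes were tested with limma where at least 6 of the 12 arrays detected them, and a difference was called at a Benjamini-Hochberg adjusted p under 0.05 over all 13177 tested probes. Of these, 31 were called, 28 lower and 3 higher in mutant pools. The targeted gene Maf was detected in 0 of 6 mutant pools and in 6 of 6 control pools, and was at least 4.48-fold lower in mutant pools (limma adjusted p = 6.3e-09). The labels do not say whether its probe lies in the deleted part. Isl1, which drives Cre, stood at -0.30 (SE 0.13, limma adjusted p = 0.77). The sensory neuron markers Avil, Isl1, Pou4f1, Prph and Uchl1 were detected in all 12 pools, Tubb3 in 3 of 6 of each genotype and Snap25 in none. Of the 6 tested neuron markers 4 were above 0 and 2 below, with 0 called and a median difference of 0.02. Among them Isl1 alone had an unadjusted p under 0.05. Bulk arrays cannot tell fewer cells of a type from less RNA per cell. Markers of other cells were mostly at background for muscle, where 2 of 10 skeletal muscle genes and 0 of the named heart muscle genes passed the detection filter, and for spinal cord, where 1 of 6 did. Of 8 listed genes of Schwann cells and satellite glia 4 had a named probe. These 4 were all tested and below 0, with 0 called and a median difference of -0.28. Of the 4, S100b (-0.36, limma adjusted p = 0.14) and Mbp by its brightest probe (-0.25, limma adjusted p = 0.52) had an unadjusted p under 0.05. The other tested Mbp probes stood at 0.08 and -0.003. For S100b the pools did not overlap. In the macrophage list 3 of 3 tested genes were above 0 and 0 were called, and Lyz2 (0.56, limma adjusted p = 0.14) had an unadjusted p under 0.05. The part of these cells in the channel results was not tested.

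Not every channel gene could be tested. Of the 28 genes 20 had at least 1 probe past the detection filter, and of the 45 probes 24 passed. Over the whole array 9223 of 16593 named genes and 13177 of 25697 probes passed. By role, all 5 sodium channel pore genes and all 3 sodium channel beta genes were tested. So were 6 of 7 calcium channel pore genes and 6 of 13 auxiliary calcium channel genes. Detection depends on the probe as well as on the gene, as the neuron marker Snap25 was detected in no pool. A gene that was not detected may thus still be expressed. The 8 genes not tested were Cacna1g, a T-type calcium channel pore, Cacnb1, the beta subunit of skeletal muscle, and Cacng1, Cacng2, Cacng3, Cacng4, Cacng6 and Cacng8. Cacng2, which encodes the AMPA receptor partner stargazin, was detected in 0 of 6 mutant pools and 2 of 6 control pools, and Cacng4 in 1 of 6 of each. The other 6 were detected in no pool. Some other genes of these families were not analysed here. Among them is Scn9a, which encodes a main tetrodotoxin-sensitive channel of pain-sensing neurons.

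**Figure D1:**
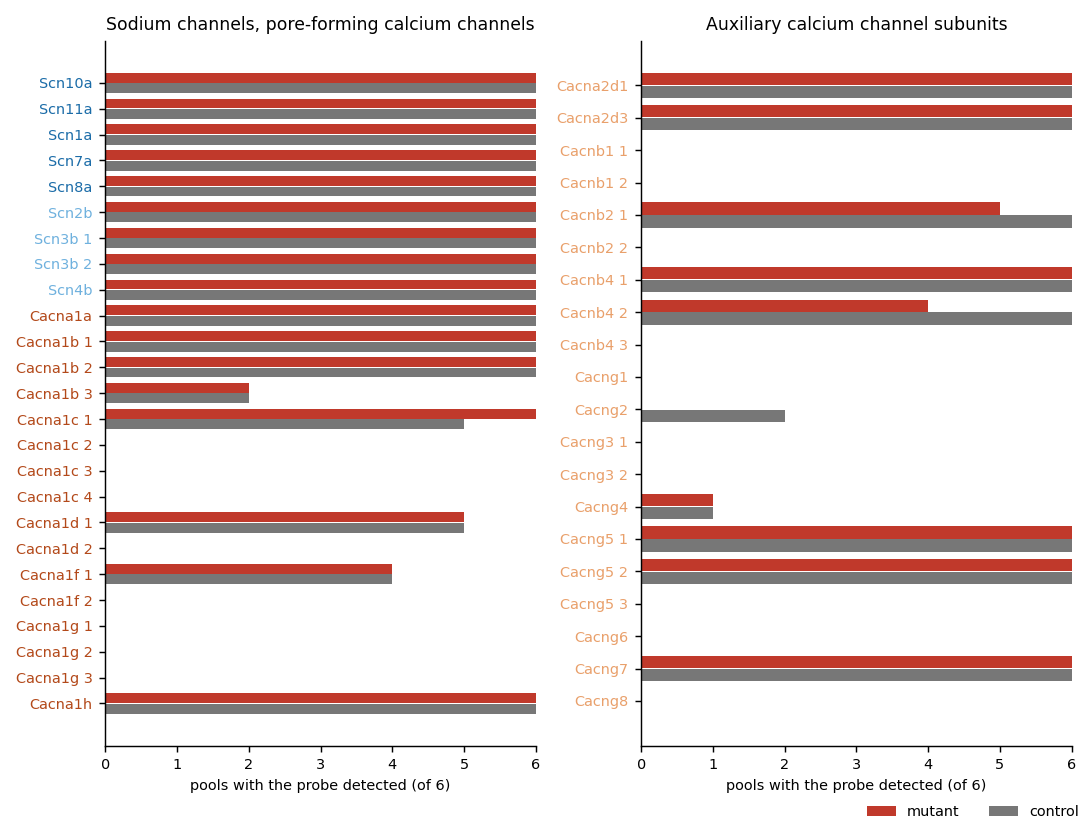
Number of mutant (red) and control (grey) pools, of 6 each, that detected each of the 45 channel probes (detection p under 0.05). Label colours mark the 4 subunit classes, dark blue for sodium channel pores, light blue for sodium channel beta subunits, dark orange for calcium channel pores and light orange for auxiliary calcium channel subunits, and a number after a symbol counts the probes of that gene. All 9 sodium channel probes were detected in all 12 pools, while 18 of the 45 probes were detected in none.

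No voltage-gated sodium or calcium channel probe differed between mutant and control ganglia past the threshold. Called probes numbered 0 of 24, where 0.235% of all tested probes were called, and the smallest limma adjusted p among the 24 was 0.61. At an unadjusted p under 0.05 there were 4 of 24 member probes, against 6.34% of all tested probes. Of these 2 were higher in mutant pools, against 2.57% of all tested probes, namely Scn4b and Cacna1h. The other 2 were lower in mutant pools, against 3.77% of all, namely Cacna2d3 and the dimmer of the tested Cacnb4 probes. For no probe did all mutant pools lie on one side of all control pools, a separation seen in 0.713% of all tested probes. With each gene read by its brightest detected probe, 7 of 20 genes were above 0 and 13 below, with a median difference of -0.04, beside 49.0% below 0 and a median of 0.00 over all 9223 tested genes. The median size of a difference regardless of sign was 0.11 for the 20 genes and 0.08 for all genes.

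Confidence intervals give the precision of each difference on this log2 scale, probe by probe and without adjustment for their number. For dim probes, most of all near the detection limit, the size of a difference depends on the background correction. Such probes were those of Cacna1a, Cacna1b, Cacna1c, Cacna1d, Cacna1f, Cacnb2, Cacng7 and Scn8a and the dimmer ones of Cacnb4 and Scn3b. For these the intervals therefore do not bound the change in RNA. With another background correction (normexp, offset 50) Cacng7 moved from -0.07 to -0.036 and Scn8a from -0.11 to -0.064. The 95% confidence interval lay within 1.5-fold in either direction for 22 of the 24 probes, beside 93.1% of all tested probes. The other 2 were Scn1a, with an interval from -0.76 to 0.16, and the dimmer Cacnb4 probe, with one from -0.84 to -0.08. Standard errors of the differences ran from 0.08 to 0.22.

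**Figure D2:**
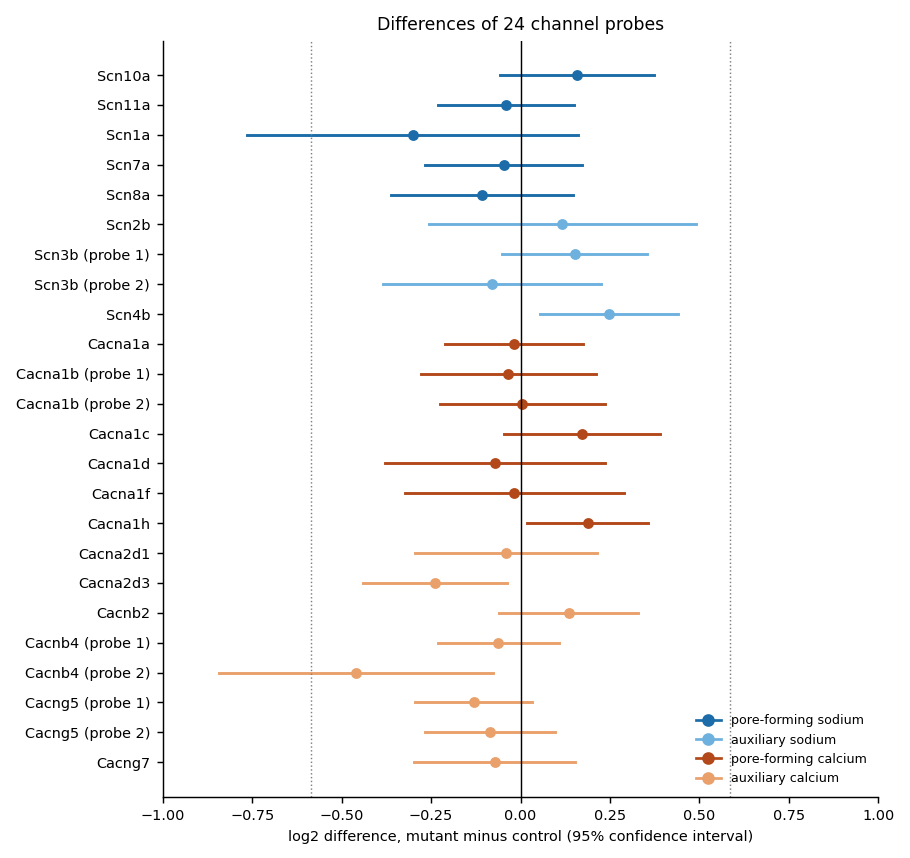
Log2 difference, mutant minus control, of each of the 24 tested channel probes (points) with its 95% confidence interval (lines), from the limma fit over 6 mutant and 6 control pools. Dotted lines mark a 1.5-fold change either way. The intervals of 22 probes stay between the dotted lines, and those of Scn1a and Cacnb4 probe 2 cross the left one.

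Because Maf binds DNA, promoter sequences were searched. Scn4b and Cacna2d3 are shown as the genes with an unadjusted p under 0.05 by their brightest probe and a listed promoter, and Scn10a as a pain-sensing channel gene whose promoter holds the motif searched. The sequences are those of RefSeq for GRCm38.p6, from 250 bases before to 50 bases after the gene's start, written 5′ to 3′ along the gene's strand. Capitals mark TGCTGA, the letters at either end of the palindromic Maf recognition element, read on either strand.
Scn4b, chr9:45138374-45138673, plus strand: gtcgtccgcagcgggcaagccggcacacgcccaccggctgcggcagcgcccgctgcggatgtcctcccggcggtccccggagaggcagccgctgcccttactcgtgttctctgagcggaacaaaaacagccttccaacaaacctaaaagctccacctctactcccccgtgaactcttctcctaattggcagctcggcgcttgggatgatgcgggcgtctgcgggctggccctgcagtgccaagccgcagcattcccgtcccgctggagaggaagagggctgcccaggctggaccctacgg
Cacna2d3, chr14:29721815-29722114, minus strand: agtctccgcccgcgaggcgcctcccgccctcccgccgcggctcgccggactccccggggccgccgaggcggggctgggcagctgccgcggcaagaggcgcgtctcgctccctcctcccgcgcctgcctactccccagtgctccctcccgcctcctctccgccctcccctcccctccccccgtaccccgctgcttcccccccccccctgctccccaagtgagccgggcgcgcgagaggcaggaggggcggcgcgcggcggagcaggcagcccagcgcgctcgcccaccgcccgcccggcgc
Scn10a, chr9:119718983-119719282, minus strand: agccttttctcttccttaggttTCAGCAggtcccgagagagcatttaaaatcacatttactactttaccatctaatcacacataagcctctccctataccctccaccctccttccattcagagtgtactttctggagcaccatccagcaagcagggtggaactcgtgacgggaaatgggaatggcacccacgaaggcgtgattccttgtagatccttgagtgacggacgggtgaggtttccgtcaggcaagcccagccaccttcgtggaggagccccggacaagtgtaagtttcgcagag

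The Scn4b and Cacna2d3 windows do not hold TGCTGA on either strand, and the Scn10a window holds it once, on the opposite strand, starting at -228 relative to the start. Of the 20 tested genes 17 had listed promoters, 25 windows in all, and 5 of these windows held TGCTGA, in Scn7a, Cacna1c, Scn10a and Scn8a. That is 20% of windows, beside 19.5% of the 32851 windows of all genes. The whole palindromic Maf recognition element, in the form with the shorter or the longer middle and both containing TGCTGA, was found in 0 windows of tested channel genes, and in 1 and 0 of all windows. A match of these letters is a description and not a binding site.

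The sodium channel pore genes were all expressed in both genotypes, and their differences ran from -0.30 (Scn1a) to 0.16 (Scn10a). With 1 gene above 0 and 4 below, the median was -0.05, and 0 of 5 reached an unadjusted p under 0.05. Scn10a (Entrez Gene 20264, chromosome 9) encodes the tetrodotoxin-resistant channel that carries most of the action potential current of pain-sensing neurons. Levels ran from 10.52 through a median of 10.62 to 11.10 in the mutant pools, and from 10.33 through a median of 10.55 to 10.68 in the control pools. Mutant pools 1 and 2 were above every control pool, and the other 4 lay within the control range. The difference was 0.16 (SE 0.10, limma adjusted p = 0.89), and 0.076 without mutant pool 2.

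Scn11a (Entrez Gene 24046, also on chromosome 9) encodes the other tetrodotoxin-resistant channel, whose slow current near rest sets excitability. Levels ran from 13.40 through 13.62 to 13.88 in mutant pools (lowest, median, highest), and from 13.53 through 13.69 to 13.79 in control pools. The mutant pools spread past both ends of the control range. The difference was -0.04, with a 95% interval from -0.23 to 0.15.

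Scn1a (Entrez Gene 20265, chromosome 2) encodes a tetrodotoxin-sensitive channel that serves in mechanosensory neurons with myelinated axons. It was the most variable of the 24 probes: its SD among pools of a genotype was 0.43, beside a median of 0.18 over all tested probes, which put it at percentile 96.6 of the 13177. In mutant pools 1 to 6 its levels were 8.41, 7.95, 7.82, 9.09, 9.19 and 8.59, and in control pools 1 to 6 they were 9.04, 8.57, 8.64, 8.95, 9.03 and 8.63. Thus mutant pools 1 to 3 lay below every control pool, and mutant pools 4 and 5 above every one. The difference was -0.30 (SE 0.22, limma adjusted p = 0.91), and -0.19 without mutant pool 2 or -0.16 without mutant pool 3.

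Scn8a (Entrez Gene 20273, chromosome 15) encodes the main sodium channel of the nodes of Ranvier. The levels ran from 5.97 through 6.45 to 6.71 in mutant pools, and from 6.29 through 6.47 to 6.75 in control pools. Of these, mutant pools 3 and 4 were below the control range. The difference was -0.11 (SE 0.12, limma adjusted p = 0.94), and -0.024 without mutant pool 3. Scn7a (Entrez Gene 20272, chromosome 2) encodes an atypical member that responds to the sodium concentration rather than to voltage and that non-myelinating Schwann cells also express. It averaged 8.74 ± 0.23 in mutant pools and 8.79 ± 0.12 in control pools (SD, n = 6 each), a difference of -0.05 with an interval from -0.27 to 0.17. Summed over its 4 tested genes on the linear scale, the list of Schwann cell and satellite glia markers ran from 6887 to 9098 in mutant pools and from 9077 to 10574 in control pools. Most of this sum is the brightest Mbp probe, which averaged 12.82 in mutant and 13.06 in control pools. S100b, the next, averaged 9.26 and 9.62. The other tested Mbp probes differed by 0.08 and -0.003. The part of these cells in the Scn7a level was not tested.

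**Figure D3:**
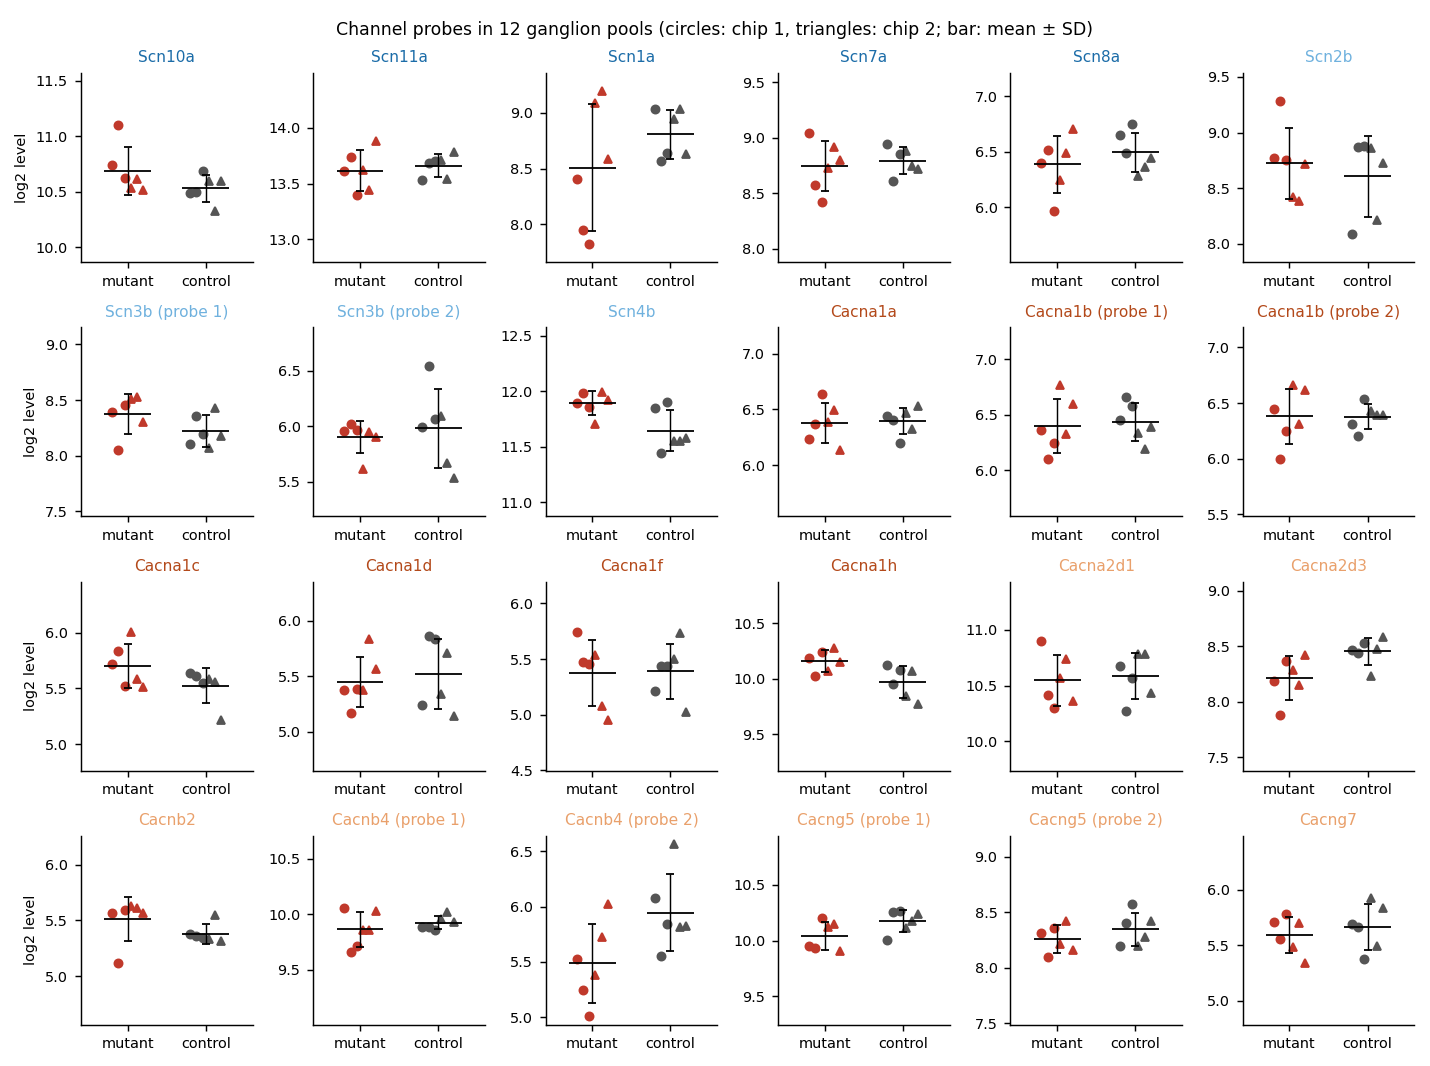
Log2 level of the 24 tested channel probes in 6 mutant (red, left) and 6 control (grey, right) pools, with the mean and SD of each genotype. Circles are pools on chip 1 and triangles pools on chip 2. Mutant and control pools overlap in all 24 panels, and among mutant pools Scn1a has the widest spread, from 7.82 to 9.19.

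The tested sodium channel beta genes lay above 0 by their brightest probes, 3 of 3, with a median difference of 0.15. One of the 3 reached an unadjusted p under 0.05. Scn4b (Entrez Gene 399548, chromosome 9) encodes the beta-4 subunit, whose cytoplasmic tail can block the open pore and give rise to resurgent current. Levels ran from 11.70 through 11.91 to 11.9965 in mutant pools, and from 11.45 through 11.56 to 11.90 in control pools. Each of the 6 mutant pools was above the control median, while control pools 1 and 3 lay within the mutant range. The difference was 0.25 (SE 0.09, interval 0.06 to 0.44), a 1.19-fold higher level in mutant pools that was not called (limma adjusted p = 0.61). It had the smallest unadjusted p of the 24 probes, 0.015.

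Scn3b (Entrez Gene 235281, chromosome 9), the beta-3 subunit, has 2 tested probes, whose differences had opposite signs. The brighter averaged 8.37 ± 0.18 in mutant pools and 8.22 ± 0.14 in control pools (SD, n = 6 each), a difference of 0.15 (limma adjusted p = 0.89). The dimmer averaged 5.90 ± 0.14 in mutant pools and 5.98 ± 0.36 in control pools (SD, n = 6 each), a difference of -0.08 (limma adjusted p = 0.96). Scn2b (Entrez Gene 72821, chromosome 9), the beta-2 subunit that is joined to the pore by a disulfide bond, spread widely in both genotypes. Scn2b ran from 8.39 through 8.73 to 9.28 in mutant pools, and from 8.08 through 8.80 to 8.88 in control pools. Mutant pool 2 stood above all other pools, and control pools 1 and 5 below all others. The difference was 0.12 with an interval from -0.26 to 0.49, and 0.0046 without mutant pool 2 or 0.013 without control pool 1.

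The calcium channel pore genes stood close to 0. By their brightest probes 2 of 6 were above 0 and 4 below, with a median difference of -0.02, and 1 of 6 reached an unadjusted p under 0.05. Cacna1h (Entrez Gene 58226, chromosome 17) encodes the T-type channel that opens at small depolarizations and is abundant in D-hair mechanoreceptors and C-fibre touch neurons. Levels ran from 10.03 through 10.17 to 10.28 in mutant pools, and from 9.77 through 10.01 to 10.13 in control pools. All 6 mutant pools were above the control median, and the ranges overlapped between 10.03 and 10.13. The difference was 0.19 (SE 0.08, interval 0.02 to 0.36), a 1.14-fold higher level in mutant pools that was not called (limma adjusted p = 0.75).

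The presynaptic channels were measured by dim probes. Cacna1a (Entrez Gene 12286, chromosome 8) encodes the P/Q-type pore. Levels ran from 6.14 through 6.38 to 6.64 in mutant pools, and from 6.20 through 6.43 to 6.53 in control pools, a difference of -0.02 with an interval from -0.21 to 0.17. Cacna1b (Entrez Gene 12287, chromosome 2) encodes the N-type pore, through which calcium enters the central terminals of pain-sensing neurons. Its brighter probe ran from 6.10 through 6.34 to 6.77 in mutant pools, and from 6.19 through 6.42 to 6.66 in control pools. The mutant pools spread past the control range at both ends. The difference was -0.03 (interval -0.28 to 0.21) for this probe and 0.0048 (interval -0.23 to 0.24) for the other tested one. The remaining Cacna1b probe, detected in 2 of 6 mutant and 2 of 6 control pools, was not tested.

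The L-type pores lay near the detection limit. Cacna1c (Entrez Gene 12288, chromosome 6), the L-type pore of heart and smooth muscle that neurons also use, was detected by 1 of its 4 probes, in 6 of 6 mutant and 5 of 6 control pools. It ran from 5.52 through 5.65 to 6.01 in mutant pools, and from 5.21 through 5.57 to 5.64 in control pools. The difference was 0.17 (interval -0.05 to 0.39, limma adjusted p = 0.87). Smooth muscle and pericyte markers varied among pools of both genotypes, with a summed linear level over 3 tested genes from 881 to 1804 in mutant pools and from 887 to 2695 in control pools, and their part in the Cacna1c level was not tested. Cacna1d (Entrez Gene 12289, chromosome 14), the other neuronal L-type pore, was detected in 5 of 6 pools of each genotype. It ran from 5.17 through 5.38 to 5.83 in mutant pools and from 5.14 through 5.53 to 5.86 in control pools, a difference of -0.07 (interval -0.38 to 0.24). Cacna1f (Entrez Gene 54652, chromosome X), known as the L-type pore of photoreceptors, was detected in 4 of 6 pools of each genotype and stood at -0.02.

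Among auxiliary calcium channel genes 1 of 6 was above 0 and 5 below by their brightest probes, with a median difference of -0.07. One of the 6 reached an unadjusted p under 0.05. Cacna2d3 (Entrez Gene 12294, chromosome 14) encodes the alpha-2-delta-3 subunit, which is known from flies and mice to be needed for normal responses to noxious heat. Its levels ran from 7.88 through 8.23 to 8.42 in mutant pools, and from 8.23 through 8.47 to 8.58 in control pools. All 6 mutant pools were below the control median, and control pool 4 was the 1 control pool inside the mutant range. The difference was -0.24 (SE 0.09, interval -0.44 to -0.04), a level in mutant pools 0.847 times that of control pools, which was not called (limma adjusted p = 0.70). Cacna2d1 (Entrez Gene 12293, chromosome 5) encodes alpha-2-delta-1, the subunit that rises in injured sensory neurons and binds gabapentin. It ran from 10.30 through 10.49 to 10.90 in mutant pools and from 10.27 through 10.62 to 10.79 in control pools, a difference of -0.04 with an interval from -0.30 to 0.21.

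The beta subunits bring the pore to the membrane. Cacnb4 (Entrez Gene 12298, chromosome 2) had 2 tested probes that differed in size. The brighter averaged 9.86 ± 0.16 in mutant pools and 9.92 ± 0.06 in control pools (SD, n = 6 each), a difference of -0.06 (interval -0.23 to 0.11). The dimmer probe was detected in 4 of 6 mutant pools and 6 of 6 control pools, and ran from 5.01 through 5.45 to 6.02 in mutant pools and from 5.55 through 5.83 to 6.56 in control pools. Its difference was -0.46 (SE 0.18, limma adjusted p = 0.68), and 2 of the mutant pools contributed values not detected above background. With another background correction (normexp, offset 50) it was -0.24. The remaining Cacnb4 probe was detected in no pool. Cacnb2 (Entrez Gene 12296, chromosome 2) was detected in 5 of 6 mutant and 6 of 6 control pools and was the 1 auxiliary calcium channel gene above 0. It ran from 5.11 through 5.58 to 5.63 in mutant pools and from 5.31 through 5.35 to 5.55 in control pools, a difference of 0.14 (limma adjusted p = 0.89). Mutant pool 2 was the lowest of all 12 pools, and the other 5 mutant pools were above every control pool.

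Of the 8 gamma genes on the array 2 were tested. Cacng5 and Cacng7 encode the type II AMPA receptor regulatory proteins. Cacng5 (Entrez Gene 140723, chromosome 11) stood at -0.13 (interval -0.30 to 0.03) by its brighter and at -0.08 (interval -0.27 to 0.10) by its dimmer tested probe. All 6 mutant pools were below the control median for the brighter probe, from 9.91 to 10.20 in mutant pools and from 10.002 to 10.26 in control pools. Cacng7 (Entrez Gene 81904, chromosome 7) stood at -0.07 (interval -0.30 to 0.15).

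**Figure D4:**
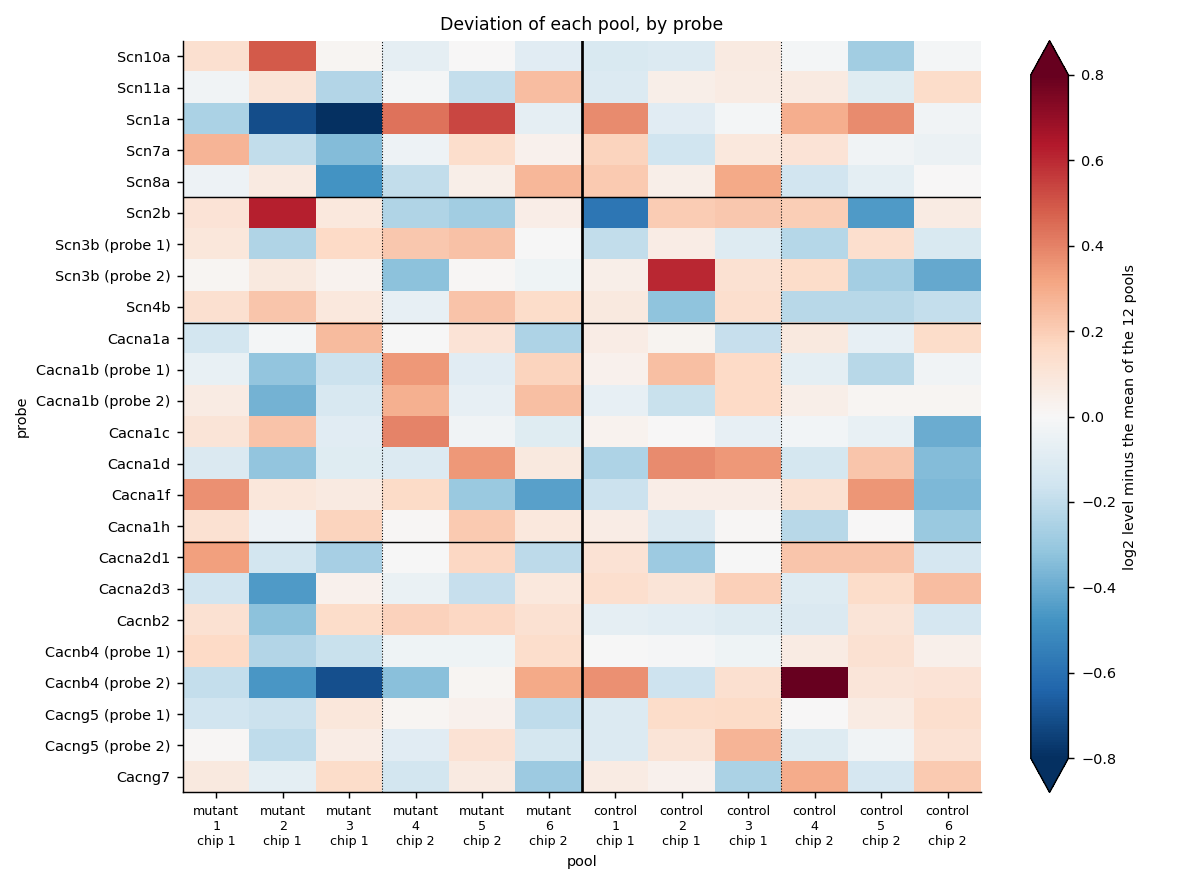
Deviation of each pool from the mean of all 12 pools, in log2 units (colour), for the 24 tested channel probes (rows). Mutant pools are left of the solid line and control pools right of it, dotted lines part chip 1 from chip 2, and horizontal lines part the 4 subunit classes. In none of the 24 rows do all mutant pools lie on one side of all control pools, and mutant pools 2 and 3 are low for Scn1a and for Cacnb4 probe 2.

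The chips were compared next, since each held 3 mutant and 3 control pools. With the chip as a block 0 of 24 probes were called. Of the 24 probes 12 had the same direction on both chips. The product of genotype and chip was called for 0 of 24 probes, as for 0% of all tested probes, and 2 of 24 had an unadjusted p under 0.05, against 2.82% of all. One was Scn1a, whose difference was -0.69 on chip 1 and 0.09 on chip 2 (a gap of 0.78). The other was the brighter Cacna1b probe, at -0.33 on chip 1 and 0.26 on chip 2 (a gap of 0.58). The second tested Cacna1b probe had the same signs, -0.12 on chip 1 and 0.13 on chip 2, and did not reach that level. All 3 limma adjusted p-values of the gaps were 1.00.

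The 4 probes with an unadjusted p under 0.05 in the overall comparison were picked on the same pools, so their signs within the chips are a description alone. Scn4b stood at 0.18 on chip 1 and 0.31 on chip 2, and Cacna1h at 0.10 and 0.27 on the same chips. Cacna2d3 stood at -0.33 on chip 1 and -0.15 on chip 2, and the dimmer Cacnb4 probe at -0.56 and -0.36. On chip 1 mutant and control pools did not overlap for 5 of 24 probes, against 10.4% of all tested probes, and on chip 2 for 3 of 24, against 9.18%. The chip itself, which may stand for anything else pools 1 to 3 and 4 to 6 differ in, was called for 0 of 24 probes, as for 0% of all. At an unadjusted p under 0.05 there were 3 of 24, against 8.54% of all tested probes: Scn1a, the dimmer Scn3b probe and the dimmer Cacnb4 probe. Scn1a was 0.51 higher on chip 2 than on chip 1 (limma adjusted p = 0.41).

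**Figure D5:**
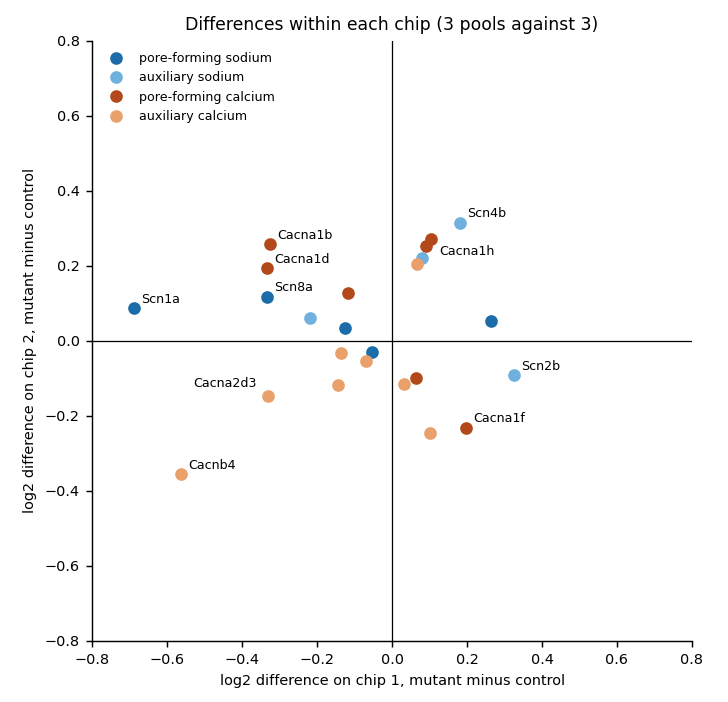
Log2 difference, mutant minus control, of the 24 tested channel probes on chip 1 (horizontal axis) and chip 2 (vertical axis), each from 3 mutant and 3 control pools, coloured by subunit class. Named points are those with an unadjusted p under 0.05 or with a gap between the chips over 0.4. Scn1a lies farthest left, at -0.69 on chip 1 and 0.09 on chip 2.

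Where a gene had 2 tested probes, their levels were compared across the 12 pools of both genotypes. With 2 further pairs of genes this made 6 relations, each with a permutation test of 100000 resamples. The Cacng5 probes varied together across pools, with a Pearson r of 0.78 (permutation p = 0.0023, adjusted p = 0.014) and a Spearman rho of 0.86 (permutation p = 0.00068, adjusted p = 0.0041). The r was 0.66 without mutant pools 2 and 6, 0.85 on chip 1 and 0.72 on chip 2. For Cacna1b r was 0.64 (permutation p = 0.023, adjusted p = 0.067) and rho 0.50 (permutation p = 0.10, adjusted p = 0.21), with 0.82 without control pool 2 and mutant pool 4, 0.55 on chip 1 and 0.90 on chip 2. For Cacnb4 r was 0.61 (permutation p = 0.034, adjusted p = 0.067) and rho 0.57 (permutation p = 0.056, adjusted p = 0.17), and r was 0.19 without mutant pools 2 and 3. Within the chips the Cacnb4 r was 0.55 on chip 1, which holds both of those pools, and 0.52 on chip 2, which holds neither.

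For Scn3b no relation was detected, with r of -0.17 (permutation p = 0.60, adjusted p = 0.60) and rho of -0.44 (permutation p = 0.15, adjusted p = 0.23), r of -0.06 without control pool 4 and mutant pool 2, and 0.19 and -0.26 on chips 1 and 2. Scn10a and Scn11a, whose products share pain-sensing neurons, had r of 0.20 (permutation p = 0.56, adjusted p = 0.60) and rho of 0.09 (permutation p = 0.79, adjusted p = 0.87). Their r was -0.19 without control pool 5 and mutant pool 2, 0.48 on chip 1 and 0.16 on chip 2. Scn1a and Scn8a had r of 0.26 (permutation p = 0.42, adjusted p = 0.60) and rho of 0.06 (permutation p = 0.87, adjusted p = 0.87). Their r was -0.32 without mutant pools 2 and 3, 0.74 on chip 1 and -0.59 on chip 2, so the sign differed between the chips.

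Genes that act with these channels were counted in the same way. Of 13 sodium channel partners, which place, modulate or remove the channels, 11 were tested, with 7 above 0, 4 below and a median of 0.02. None was called, where 0.271% of all tested genes were called, and 1 of 11 had an unadjusted p under 0.05, against 6.51% of all tested genes. This was Nrcam, an adhesion protein that helps gather sodium channels at nodes of Ranvier. Its levels ran from 8.58 through 8.78 to 8.99 in mutant pools, and from 8.87 through 9.06 to 9.17 in control pools, a difference of -0.24 (SE 0.08, limma adjusted p = 0.52). The largest difference above 0 by a brightest probe was that of Sptbn4, the spectrin that anchors ankyrin-G, at 0.14 (limma adjusted p = 0.88). Fgf12 was close to it, also at 0.14 by its brightest probe (limma adjusted p = 0.89). The dimmer tested Fgf12 probe stood at 0.43 (SE 0.25, limma adjusted p = 0.87).

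Of 22 calcium channel partners 19 had a named probe and 11 were tested, with 7 above 0, 4 below and a median of 0.08. None was called and 0 of 11 had an unadjusted p under 0.05. The differences ran from -0.15 for Rem2, a small GTPase that inhibits calcium channels, to 0.17 for Ahnak, a scaffold protein that binds beta subunits (limma adjusted p = 0.91 for each).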

How the data were processed

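Total RNA was labelled with biotin and hybridised to single-colour Illumina BeadChips, 1 array per pool. The deposited intensity values are bead summaries from GenomeStudio, per the submitters' processing notes (version not given in the sources used here), and were neither background-subtracted nor normalized between arrays. The deposited table also holds a detection p-value per probe and array, per the file headers. A second deposited table of intensity values, of the same 12 arrays and with the same ranks, is, by its negative values and nearly equal medians, background-subtracted and normalized, by a method not given in the sources used here. It served as an alternative alone, as log2 of values floored at 0 plus 16.

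The log2 levels were computed with neqc in limma 3.58.1 (R 4.3.3), with an offset of 16. Arrays detected 12822 to 13491 probes each. Precision is limited by there being 12 arrays. Probes detected (p under 0.05) on at least 6 of 12 arrays were tested, 13177 of 25697, with lmFit and eBayes on genotype alone. The detected probe with the highest mean, called brightest, stood for a gene. The platform annotation gave 1 symbol for 23978 probes, several for 0 and none for 1719, and RefSeq (GRCm38.p6) held the gene identifier of 23962. The file names no genome build, so coordinates are given for RefSeq's promoter windows alone.

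Permutation tests used SciPy 1.17.1. The fit was run on simulated arrays with independent noise as a check of the code. That run does not show that differences as small as those of the members would be called. Groups came from the sample titles. Replicate numbers are shared by both genotypes, but deviations of same-numbered pools correlated between -0.12 and 0.19, so the numbers were not taken to pair the pools. No 2 arrays were identical. The alternatives were another background correction, the second table, median scaling, 2 other detection filters, array weights, and blocks for chip and replicate number. Further ones were each chip alone, the omission of each array, and every detected probe in place of the brightest. The last changes class medians alone. Genes named with values in each pool were those with an unadjusted p under 0.05, the highest and lowest difference of each class, and Scn1a, Scn8a, Scn9a, Scn10a, Scn11a, Cacna1a, Cacna1b, Cacna1h, Cacna2d1 and Cacna2d2, where tested. Of the partners, those with such a p and the extreme differences were named. Partner and marker lists were set by function. The members and lists were chosen with earlier results of these data known.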

Additional observations from a re-analysis of the deposited data

Results flagged for a closer look

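Among the 24 tested channel probes, 48 groups of 6 pools were examined for 1 pool far from the other 5, and 4 such pools were found, while about 1 in 20 groups, which makes 2.4, would show one by chance. All 4 lay on dim probes. For Cacnb2 mutant pool 2 stood at 5.11, below the other mutant pools at 5.57 to 5.63, and control pool 5 stood at 5.55, above the other control pools at 5.31 to 5.37. For Cacna1c control pool 6 stood at 5.21, below the other control pools at 5.55 to 5.64. For the dimmer Scn3b probe mutant pool 4 stood at 5.62, below the other mutant pools at 5.91 to 6.02.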

How the results depend on the processing

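Under each of the 23 alternatives 0 member probes were called, and the smallest limma adjusted p of a member over all of them was 0.39, for the dimmer Cacnb4 probe without mutant replicate 6. The alternative that takes every detected probe repeats the main fit for single probes, so its calls could not differ. With the replicate number as a replicate block 0 member probes were called as well, and 23 of all probes. Member probes with an unadjusted p under 0.05, 4 as reported, numbered 2 without mutant replicate 3, without control replicate 4 or without control replicate 6, 2 within chip 2, and 5 without mutant replicate 2. Over all probes 31 were called as reported, 21 to 36 with 1 pool left out, 4 within chip 1 and 1 within chip 2, each chip having 6 pools. Scn4b, Cacna1h, Cacna2d3 and the dimmer Cacnb4 probe kept their direction throughout, but not their size. They were picked on the same pools, which the alternatives reuse, so this is a description alone. Cacna1c, Cacnb2, the brighter Cacnb4 probe, the tested Cacng5 probes, Scn10a and the brighter Scn3b probe kept their direction as well. With normexp and an offset of 50 the dimmer Cacnb4 probe stood at -0.24, Cacna1c at 0.085, Cacnb2 at 0.064 and Scn8a at -0.064, and with array weights Scn1a stood at -0.16, Scn2b at 0.075 and Scn8a at -0.052.

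Other members changed sign, none of them called. Within chip 1 these were Cacna1a (0.063), the dimmer Cacna1b probe (-0.12), Cacna1f (0.20), Cacna2d1 (0.033) and Cacng7 (0.10). Within chip 2 these were the brighter Cacna1b probe (0.26), Cacna1d (0.19), Scn1a (0.086), Scn2b (-0.093), the dimmer Scn3b probe (0.060), Scn7a (0.033) and Scn8a (0.12). With array weights the brighter Cacna1b probe stood at 0.011 and Cacna1d at 0.017, and with median scaling the dimmer Cacna1b probe stood at -0.0063. With 1 pool left out the range was -0.071 to 0.029 for Cacna1a, -0.11 to 0.025 for the brighter and -0.051 to 0.081 for the dimmer Cacna1b probe, -0.092 to 0.067 for Cacna1f, -0.11 to 0.0076 for Cacna2d1, -0.095 to 0.0016 for Scn11a, -0.17 to 0.033 for the dimmer Scn3b probe and -0.11 to 0.018 for Scn7a. Without a change of sign it was 0.0046 to 0.18 for Scn2b, 0.076 to 0.19 for Scn10a, -0.44 to -0.16 for Scn1a, -0.17 to -0.024 for Scn8a, 0.11 to 0.21 for Cacna1c and 0.11 to 0.21 for Cacnb2.

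Some class medians moved by more than their spread among control pools. For auxiliary calcium channel genes this was so within each chip and without mutant replicate 1 (-0.11). Their median was -0.018 within chip 1 and -0.12 within chip 2, and from -0.11 to -0.037 with 1 pool left out. Pore-forming sodium channel genes had a median of -0.13 within chip 1, a shift inside that spread, and 0.052 within chip 2, a shift outside it. Pore-forming calcium channel genes had one of 0.077 within chip 1 and 0.22 within chip 2, both above 0, beside -0.02 over both chips. Of these the chip 2 median alone moved by more than the spread. On chips 1 and 2 Cacna1a (0.06, -0.10), Cacna1b (-0.33, 0.26), Cacna1d (-0.33, 0.19) and Cacna1f (0.20, -0.23) had opposite signs. Cacna1c and Cacna1h were above 0 on each. The median over both chips therefore need not lie between those of the chips. Why genes differed between chips was not tested, and a chip alone holds 3 pools of each genotype. The probes near the detection limit, those of Cacna1c, Cacna1d, Cacna1f, Cacnb2 and Cacng7 and the dimmer one of Cacnb4, have little signal over background, which limits what they can show.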
